A study of Mus musculus with 6 samples.

Results

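Cxcr4, Cd44, Selplg, Cd34, Icam1, Pecam1 and Cd9 are 7 genes for cell surface proteins by which blood cells find, enter and hold on to the bone marrow niche. They were taken by name from the 26082 gene names in the table, and all 7 were among the 11130 genes tested. Each had 1 row of its own, with no row joined to another gene. RNA was sequenced from mouse acute myeloid leukemia cells driven by MLL-AF9, a fusion of the histone methyltransferase gene KMT2A (MLL) with AF9. C57BL/6J bone marrow progenitors had been selected for c-Kit and transduced with a retrovirus carrying MLL-AF9, and the leukemia was passed from mouse to mouse before the experiment. 3 leukemic mice received vehicle and 3 received 80 mg/kg DS-5272 by mouth. DS-5272 blocks the binding of MDM2 to p53 and so stabilizes p53. The marrow was harvested for leukemia cells 24 hours later. The cells of both groups carried MLL-AF9 and had p53 intact, and the age of the mice is not given in the sources used here. Serial transplantation means that the 6 mice may share a leukemic origin, so p-values measure the spread between these 6 mice.

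The niche holds hematopoietic and leukemic cells by several systems. CXCR4 is the receptor for the chemokine CXCL12, which marrow stromal cells secrete, and the pair retains cells in the marrow. PSGL-1, encoded by Selplg, and suitably glycosylated CD44 bind selectins on vessel walls, while CD44 also binds the matrix polysaccharide hyaluronan. ICAM-1 is a ligand of the beta2 integrins LFA-1 and Mac-1. PECAM-1 binds itself on neighbouring cells and takes part in crossing of the endothelium. CD9 is a tetraspanin, a membrane protein that gathers integrins and other partners into clusters, and CD34 is a sialomucin of progenitor cells and vessel walls.

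Promoters are shown for 4 of the genes, because Icam1, Cd9 and Cd44 rose with DS-5272 while Cxcr4 was the gene with the lower mean. The sequences are from RefSeq on GRCm38.p6, 5′ to 3′ on the gene's strand, and run up to the RefSeq start of the gene, except that Cd9 ends 31 bases short of it, where another annotated transcript begins. 5 of the 7 genes had an entry, and Selplg and Pecam1 had none. Capitals mark the motifs searched on both strands, which were the NF-kB-type palindrome GGAAATTCC, the NF-kB consensus, the STAT-type TTCNNNGAA, the GC box GGGCGG and the hypoxia response core ACGTG. The Icam1 window is chr9:21015690-21015939 on the plus strand, the Cd9 window chr6:125494792-125495010 on the minus strand, the Cd44 window chr2:102901666-102901915 on the minus strand and the Cxcr4 window chr1:128592300-128592549 on the minus strand.
Icam1: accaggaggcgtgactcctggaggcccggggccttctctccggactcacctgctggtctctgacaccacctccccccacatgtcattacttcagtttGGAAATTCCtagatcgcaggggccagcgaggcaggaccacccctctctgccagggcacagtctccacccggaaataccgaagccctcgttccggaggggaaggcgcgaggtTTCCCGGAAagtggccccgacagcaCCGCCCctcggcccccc
Cd9: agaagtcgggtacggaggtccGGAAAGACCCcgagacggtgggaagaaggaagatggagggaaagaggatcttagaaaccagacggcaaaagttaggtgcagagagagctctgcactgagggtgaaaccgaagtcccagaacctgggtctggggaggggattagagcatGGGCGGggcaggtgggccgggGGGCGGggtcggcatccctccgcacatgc
Cd44: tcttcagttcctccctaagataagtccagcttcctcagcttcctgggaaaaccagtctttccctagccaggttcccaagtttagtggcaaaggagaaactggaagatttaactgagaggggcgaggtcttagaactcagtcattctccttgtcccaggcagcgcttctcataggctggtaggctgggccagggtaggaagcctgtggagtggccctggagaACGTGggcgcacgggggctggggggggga
Cxcr4: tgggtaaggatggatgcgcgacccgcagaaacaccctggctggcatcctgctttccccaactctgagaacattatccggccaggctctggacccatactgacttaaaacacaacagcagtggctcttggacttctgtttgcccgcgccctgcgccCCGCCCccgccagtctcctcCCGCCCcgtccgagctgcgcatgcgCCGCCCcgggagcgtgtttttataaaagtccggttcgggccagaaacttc
Icam1 held GGAAATTCC beginning 153 bases before the start, letters found in 0.286% of 32851 promoter windows of the same 250 upstream bases. It also held TTCNNNGAA at 42 bases, found in 7.02% of windows, and a GC box at 17 bases. Cd9 held the NF-kB consensus at 229 bases, found in 1.41% of windows, and GC boxes at 81 and 60 bases. Cd44, which rose as well, held neither NF-kB form, no TTCNNNGAA and no GC box, and had ACGTG at 29 bases, found in 16.6% of windows. Cxcr4 held neither NF-kB form and had GC boxes at 95, 75 and 50 bases. Cd34 held none of the 5 motifs. The GC box was present in 32.7% of windows, and none of these motifs overlapped another. The matches describe letters in a window, and binding was not measured.

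The deposited values are FPKM, fragments per kilobase of transcript scaled to the mapped total of the library, a scale that is divided by transcript length and so allows levels of different genes to be set side by side. Summed FPKM ranged from 445316 to 501241 in vehicle mice and from 499229 to 661184 in DS-5272 mice. Relative depth, read from the steps between low FPKM values and set to 1 in vehicle replicate 1, was 0.808 to 1 in vehicle and 0.539 to 0.746 in DS-5272 mice. Read numbers are not known, so no counting intervals can be given. Fold changes are differences of means of log2(FPKM + 1), DS-5272 minus vehicle, and understate changes of genes with low levels. They were tested with limma across all 11130 genes, two-sided, with Benjamini-Hochberg adjustment and a threshold of 0.05. As a check of the label, Meis1 and Pbx3, transcription factor genes of the MLL-AF9 program, were at 66.1 to 109.9 and 128 to 158 FPKM in every mouse, while Mef2c was at 2.45 FPKM or less. Hoxa5, Hoxa7, Hoxa9 and Hoxa10 were listed only in rows joined with neighbouring genes and were not used.

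5 of the 7 genes rose with DS-5272, namely Selplg, Cd44, Icam1, Cd9 and Pecam1, each to 2.21 to 2.81 times its vehicle mean. Cxcr4, at 0.671 times its vehicle mean, and Cd34, at 1.12 times, did not pass the test. Among all genes tested, 24.2% were called higher, 22.0% lower and 46.3% in either direction. Of the 7 genes 71.4% were called higher, but they were chosen with earlier results of these data known. The contrasts with all genes given here therefore describe the 7 genes and are no test of them as a set. None of the 7 was called lower by limma, and none was lower at an unadjusted p under 0.05 either. The same 5 genes had no overlap between groups, with every DS-5272 mouse above every vehicle mouse, an arrangement found in 32.1% of all genes, with the opposite one in 29.7% and either in 61.8%. The median log2 fold change of the 7 was 1.19, against 0.04 over all genes. No exact permutation test of 3 against 3 mice can give a p below 0.1, which was the value for each of these 5 genes.

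**Figure D1:**
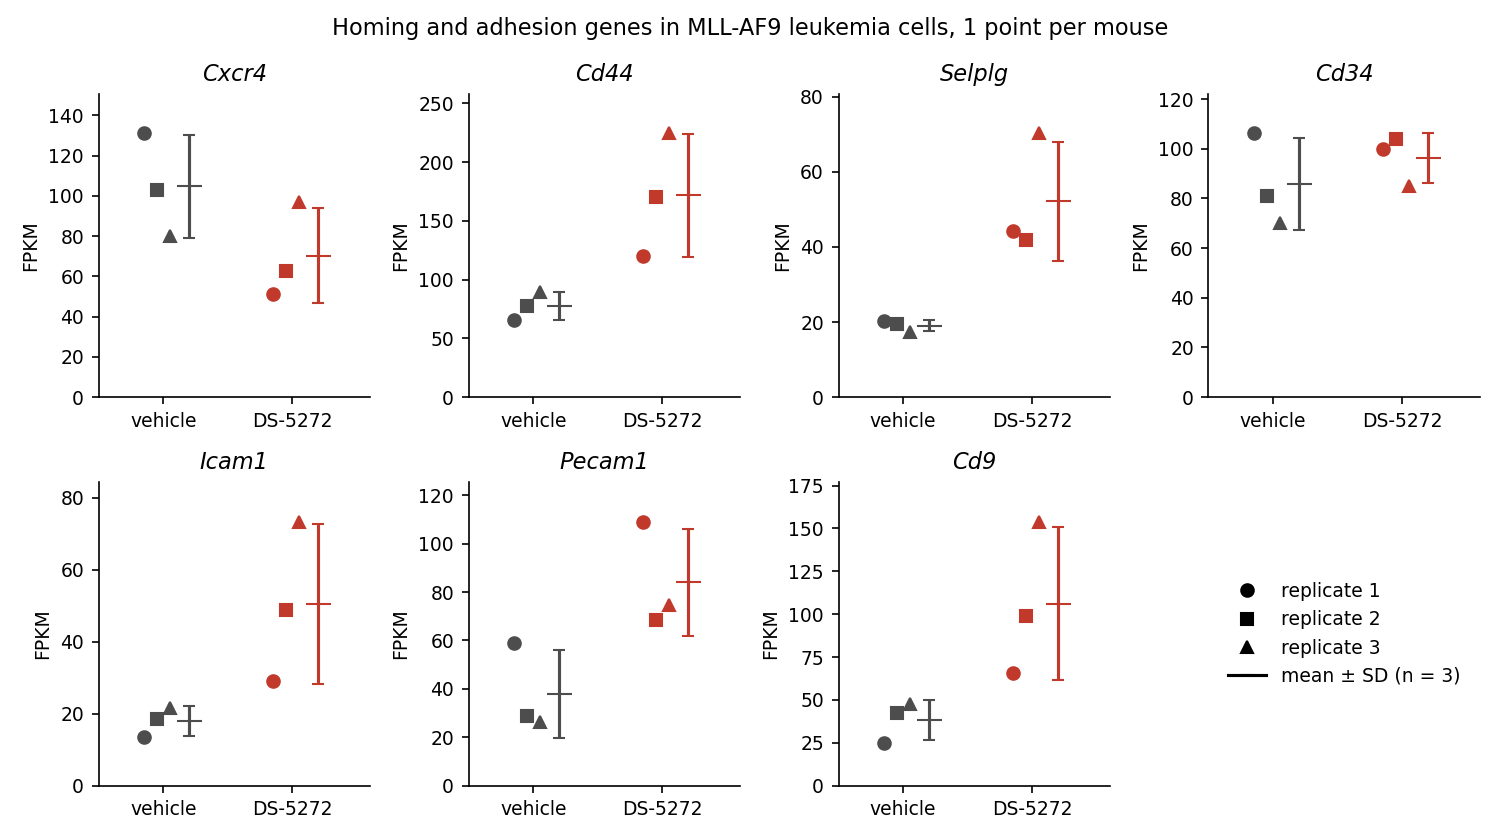
FPKM of each of the 7 homing and adhesion genes on a linear axis from 0, with 1 point for each vehicle and DS-5272 mouse shaped by replicate number, and the mean ± SD (n = 3) beside the points. The groups are apart for Cd44, Selplg, Icam1, Pecam1 and Cd9, and they overlap for Cxcr4 and Cd34.

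Cxcr4, on chromosome 1 at 128588199 to 128592293 of GRCm38, minus strand, had the highest mean level of the 7 in vehicle mice, in the 93.3 percentile of genes tested, although Cd44 lay above it in vehicle replicate 3. Its FPKM was 131, 103 and 79.9 in vehicle replicates 1, 2 and 3, and 51.3, 62.6 and 96.8 in DS-5272 replicates 1, 2 and 3. DS-5272 replicate 3 lay inside the vehicle range and the other DS-5272 mice lay below it. The means were 104.7 ± 25.7 and 70.3 ± 23.7 FPKM (SD, n = 3 each). The log2 fold change of Cxcr4 was -0.59 with an SE of 0.27 and a 95% interval of -1.24 to 0.06 (limma, adjusted p = 0.115). The call turned on 1 mouse and on scaling: without DS-5272 replicate 3 it was -0.84 (limma, adjusted p = 0.0311), and with all libraries brought to a common total it was -0.86 (limma, adjusted p = 0.0272). A common upper quartile and quantile normalization also gave a call of lower. All genes' median moved from 0.04 to -0.21 under the common total, and relative to that median Cxcr4 was at -0.63 as deposited and -0.65 rescaled.

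The CXCL12 side of the axis was near the bottom of the scale. Cxcl12 itself was at 0.0385 to 0.129 FPKM in vehicle and 0.298 to 0.679 FPKM in DS-5272 mice, under the mean of 1 FPKM needed for testing. Of 20 tested genes for CXCR4 signaling and its regulation, 14 rose (70%) and 1 fell (5%), with a median log2 fold change of 0.63. Of all genes tested, 24.2% were called higher and 22.0% lower. Rgs1, which shortens G protein signaling from chemokine receptors, rose from 3.62 ± 2.36 to 37.0 ± 23.7 FPKM (SD, n = 3). Grk5, a kinase that desensitizes such receptors, rose from 2.52 ± 0.146 to 17.9 ± 7.93 FPKM. Ptk2b, the tyrosine kinase Pyk2, rose from 21.9 ± 2.98 to 54.2 ± 15.01 FPKM. These are the genes with the largest rises in the list. Mif, an alternative ligand of CXCR4, was the gene that fell, from 399.7 ± 23.6 to 130.3 ± 48.5 FPKM, and as it has pseudogene copies its reads may be split. The log2 fold changes were 2.96 for Rgs1, 2.35 for Grk5, 1.25 for Ptk2b and -1.68 for Mif (limma, adjusted p = 0.0105, 0.0021, 0.0055 and 0.0047).

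Selplg, on chromosome 5 at 113818536 to 113832644, minus strand, had the tightest vehicle values of the 7 and the smallest adjusted p in the unblocked test. Vehicle mice had 20.2, 19.5 and 17.3 FPKM and DS-5272 mice 44.3, 41.8 and 70.3 FPKM, replicates 1 to 3 in both. Every DS-5272 mouse was above the vehicle mice, and the vehicle coefficient of variation was 8.01% against 30.3% with DS-5272. The means of Selplg were 19.0 ± 1.52 and 52.1 ± 15.8 FPKM, a log2 fold change of 1.37 (SE 0.20, 95% interval 0.89 to 1.85) (limma, adjusted p = 0.0040). It kept its call in all 17 alternatives tried. The row of Gm19941 was at 4.45 to 4.68 times the FPKM of Selplg in every mouse. Whether the rows share fragments was not tested, so the level given for Selplg is that of its own row.

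Of 15 tested selectin genes and genes for making selectin ligands, 8 rose (53.3%) and the other 7 were not called. The median log2 fold change was 0.59, and 24.2% of all genes were called higher. The largest rises were in Snx20, Sele and Gcnt1. Snx20, a sorting nexin that binds PSGL-1, rose from 38.3 ± 1.91 to 103 ± 22.4 FPKM (log2 fold change 1.38, limma adjusted p = 0.0022). Gcnt1, an enzyme that branches the O-glycans of PSGL-1, rose from 2.47 ± 0.391 to 6.34 ± 0.994 FPKM (log2 fold change 1.08, limma adjusted p = 0.0036). Sele, E-selectin, rose from 1.89 ± 0.052 to 6.41 ± 3.999 FPKM (log2 fold change 1.23, limma adjusted p = 0.0259), a call lost with no filter (0.0564) and without any 1 of the vehicle mice (0.0669 to 0.0734). Part of its signal may lie in a row joined with other genes, which was left out. Selp, P-selectin, was at 0.481 to 0.759 FPKM in vehicle and 1.28 to 2.08 FPKM with DS-5272.

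Cd44 spans chromosome 2 at 102811141 to 102901665, minus strand. Its 9 annotated transcripts hold 32 distinct exon intervals, in which an exon with alternative ends counts more than once. Standard and variant CD44 forms are spliced from this gene. The table gives a single value for the gene, so these forms cannot be told apart. Cd44 was 66.0, 77.5 and 89.7 FPKM in the vehicle mice, replicates 1 to 3, and 119.8, 170.3 and 225 FPKM in the DS-5272 mice. The groups did not overlap, and replicate 1 was the lowest of both. Means were 77.7 ± 11.9 and 172 ± 52.4 FPKM, and the Cd44 log2 fold change was 1.10 (SE 0.24, 95% interval 0.53 to 1.67) (limma, adjusted p = 0.0114). Like Selplg, Cd44 kept its call in 17 of 17 alternatives.

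Among 16 tested genes for hyaluronan and CD44 partners, 8 rose (50%) and 1 fell (6.25%), with a median log2 fold change of 0.53. Over all genes, 24.2% were called higher and 22.0% lower. Mmp9, a gelatinase that docks on CD44 at the cell surface, rose from 30.7 ± 18.0 to 643 ± 432 FPKM (limma, adjusted p = 0.0052). Vcan, the matrix proteoglycan versican that binds hyaluronan, rose from 10.1 ± 2.76 to 124 ± 33.4 FPKM, a log2 fold change of 3.49 (limma, adjusted p = 0.00068). Stab1, a scavenger receptor of the stabilin family, rose from 1.76 ± 0.936 to 14.9 ± 4.98 FPKM (limma, adjusted p = 0.0027). Hmmr, a hyaluronan-binding protein that also sits on the mitotic spindle, fell from 20.8 ± 1.43 to 4.81 ± 4.95 FPKM, a log2 fold change of -2.24 (limma, adjusted p = 0.0154). Mmp9 is also a neutrophil granule gene and Stab1 a macrophage gene. As given with the marker sums, 6 of 8 neutrophil and 3 of 11 macrophage markers rose, against 24.2% of all genes. The part of these cells in the changes of Mmp9 and Stab1 was not tested.

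Icam1, on chromosome 9 at 21015985 to 21028817, plus strand, had the lowest mean level of the 7 in both groups, with Selplg below it in vehicle replicate 3 and in DS-5272 replicates 2 and 3. Vehicle mice had 13.6, 18.7 and 21.7 FPKM, and DS-5272 mice 29.1, 48.8 and 73.4 FPKM. The groups were apart, with a range of 29.1 to 73.4 FPKM under DS-5272 and a coefficient of variation of 44.0%, the widest among these genes in that group. Means were 18.0 ± 4.07 and 50.5 ± 22.2 FPKM, and the Icam1 log2 fold change was 1.37 (SE 0.33, 95% interval 0.57 to 2.16) (limma, adjusted p = 0.0166). Leaving out vehicle replicate 1 or vehicle replicate 2 kept the direction and moved the adjusted p in limma to 0.054 and 0.0503. An antisense gene, Gm47079, overlaps an Icam1 exon, and no source used here says whether reads were assigned by strand.

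Several counter-receptors of ICAM-1 rose. Of 17 tested genes of the ICAM family, their integrins and integrin activators, 12 rose (70.6%) and 1 fell (5.88%). The median log2 fold change was 0.84, and the shares over all genes were 24.2% and 22.0%. Itgam, the alpha chain of Mac-1, rose from 168 ± 26.0 to 754 ± 294 FPKM (log2 fold change 2.1, limma adjusted p = 0.0031). A protein-coding gene on the same strand, Gm49368, overlaps an exon of Itgam, so its reads may be split. Itgax and Itgb7, integrin chains of p150,95 and of alpha4beta7, rose from 0.582 ± 0.149 to 6.40 ± 2.99 FPKM and from 2.52 ± 0.329 to 15.2 ± 6.10 FPKM (limma, adjusted p = 0.0045 and 0.0037). Icam2, a second ICAM that binds LFA-1, fell from 35.7 ± 2.86 to 18.9 ± 4.65 FPKM, a log2 fold change of -0.90 (limma, adjusted p = 0.0080). Itgal, Itgb2, Vcam1 and Itga4 were picked after their values were seen, as the chains of LFA-1 and the VCAM-1 and VLA-4 pair. Itgal and Itgb2 rose, with log2 fold changes of 1.19 and 1.88 (limma, adjusted p = 0.0065 and 0.0012). Vcam1 at 61.2 ± 23.2 and 101.1 ± 36.6 FPKM did not pass the test (log2 fold change 0.74, limma adjusted p = 0.125), nor did Itga4, the VLA-4 alpha chain, at 32.5 and 29.1 FPKM (log2 fold change -0.15, limma adjusted p = 0.373).

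Pecam1 lies on chromosome 11 at 106654217 to 106750628, minus strand, with 28 distinct exon intervals in 8 transcripts. It had the widest relative spread among vehicle mice, a coefficient of variation of 47.6%. Its FPKM was 58.8, 28.7 and 26.4 in vehicle mice and 109, 68.3 and 74.5 in DS-5272 mice. Replicate 1 was the highest of both groups, the reverse of Cd44, Icam1 and Cd9, in which replicate 1 was the lowest of both. Means were 37.9 ± 18.1 and 83.9 ± 22.0 FPKM and the Pecam1 log2 fold change was 1.19 (SE 0.33, 95% interval 0.41 to 1.97) (limma, adjusted p = 0.0246). The call was the least stable of the 5: the direction held in all 17 alternatives, and limma's adjusted p was 0.0986 with a common total, 0.0844 without vehicle replicate 2, 0.0763 without vehicle replicate 3 and 0.0591 without DS-5272 replicate 1. Across same-numbered mice the log2 ratios were 0.89, 1.25 and 1.5, and with replicate number as a block limma gave an adjusted p of 0.0019.

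Among 11 tested partners of PECAM-1 and genes for crossing the endothelium, 7 rose (63.6%) and 1 fell (9.09%). The median log2 fold change was 1.11, and the shares over all genes were 24.2% and 22.0%. Cd38, an ectoenzyme described as a PECAM-1 ligand, rose from 29.8 ± 8.80 to 176 ± 59.9 FPKM (log2 fold change 2.50, limma adjusted p = 0.0025). Cd177, a neutrophil surface protein that binds PECAM-1, rose from 102 ± 46.1 to 348 ± 130.1 FPKM (log2 fold change 1.83, limma adjusted p = 0.0150). F11r, the junctional molecule JAM-A, rose from 0.549 ± 0.0388 to 3.69 ± 0.468 FPKM (log2 fold change 1.59, limma adjusted p = 0.00089). Ptpn11, the phosphatase SHP-2 that docks on the PECAM-1 tail, fell from 22.98 ± 1.51 to 18.7 ± 0.945 FPKM (limma, adjusted p = 0.0482), a call lost when any 1 mouse was left out (0.0506 to 0.156) and with a replicate block (0.0531).

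Cd9, on chromosome 6 at 125460266 to 125494791, minus strand, had the largest log2 fold change of the 7, by a margin smaller than its SE. Selplg and Icam1 were both at 1.37, and Icam1 had a larger ratio of means than Cd9, 2.81 against 2.78. Vehicle mice had 25.0, 42.2 and 47.5 FPKM and DS-5272 mice 65.6, 98.8 and 154 FPKM. The groups did not overlap, so a rise in each same-numbered pair follows and adds no support. The log2 ratios of these pairs were 1.39, 1.23 and 1.70. Means were 38.2 ± 11.8 and 106 ± 44.7 FPKM, and the Cd9 log2 fold change was 1.41 (SE 0.35, 95% interval 0.57 to 2.26) (limma, adjusted p = 0.0181). Without vehicle replicate 1 the log2 fold change of Cd9 was 1.14 (limma, adjusted p = 0.0513).

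Tetraspanins and partners listed with CD9 rose more often than they fell. Of 18 tested tetraspanins and partners, 9 rose (50%) and 2 fell (11.1%), with a median log2 fold change of 0.52. The shares of all genes were 24.2% and 22.0%. Cd63, found in lysosomes and granules, rose from 91.1 ± 26.5 to 185 ± 26.6 FPKM, and Cd53, a leukocyte tetraspanin, rose from 72.0 ± 3.79 to 152 ± 29.6 FPKM (limma, adjusted p = 0.0131 and 0.0038). Ptgfrn, a CD9 partner protein of the immunoglobulin superfamily, rose from 0.279 ± 0.0687 to 4.31 ± 1.82 FPKM (limma, adjusted p = 0.0025). Tspan8 fell from 37.9 ± 4.67 to 6.36 ± 1.20 FPKM, a log2 fold change of -2.41 (limma, adjusted p = 0.00061). Tspan2 fell from 18.8 ± 2.23 to 12.4 ± 1.58 FPKM (limma, adjusted p = 0.0144), a call lost without vehicle replicate 3 (0.058).

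Cd34, on chromosome 1 at 194938819 to 194961279, plus strand, was the gene with the smallest difference between the means. It was at 106, 81.1 and 70.3 FPKM in vehicle mice and 99.9, 104 and 85.1 FPKM in DS-5272 mice. The ranges overlapped, the means were 85.9 ± 18.5 and 96.3 ± 9.94 FPKM, and the Cd34 log2 fold change was 0.18 with a 95% interval of -0.23 to 0.59 (limma, adjusted p = 0.412). The interval leaves room for a rise of 0.59 on the log2 scale, and the sign turned with a common total (-0.085) and with quantile normalization (-0.072). An exon of Cd34 is overlapped by the antisense gene Gm16897.

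Other progenitor surface genes went in both directions. Of 8 tested, 5 rose (62.5%) and 2 fell (25%), with a median log2 fold change of 0.55. The shares of all genes were 24.2% and 22.0%. Flt3, a cytokine receptor of early progenitors, fell from 39.1 ± 13.3 to 1.83 ± 0.809 FPKM, a log2 fold change of -3.81 (limma, adjusted p = 0.00069). Kit, the stem cell factor receptor by which the founding cells were selected, fell from 36.0 ± 7.91 to 8.90 ± 3.63 FPKM, a log2 fold change of -1.96 (limma, adjusted p = 0.0046). Ly6a, the stem cell antigen Sca-1, rose from 6.38 ± 5.47 to 58.2 ± 28.1 FPKM (log2 fold change 3.14, limma adjusted p = 0.0055). Cd33, a myeloid sialic acid-binding receptor, rose from 264 ± 45.9 to 705 ± 141 FPKM (log2 fold change 1.41, limma adjusted p = 0.0036). Cd93 rose from 57.2 ± 13.5 to 103 ± 28.0 FPKM (limma, adjusted p = 0.0300), and its call was lost in several alternatives, with an adjusted p of up to 0.175.

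**Figure D2:**
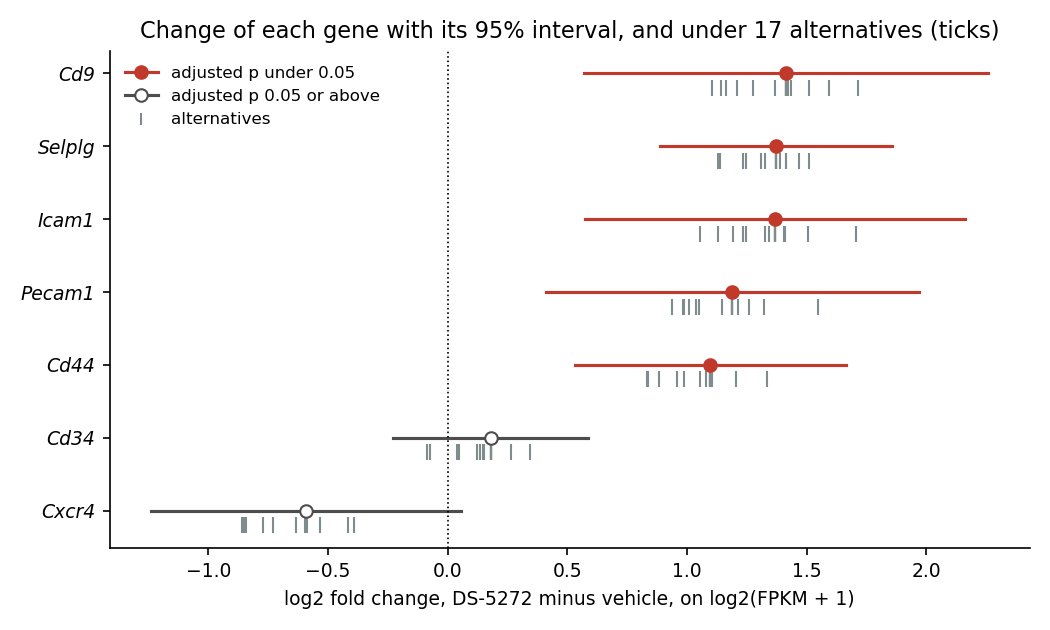
Log2 fold change of each of the 7 genes, DS-5272 minus vehicle on log2(FPKM + 1), with the 95% interval from limma as a line and the value under each of 17 alternatives as a tick, filled points being those called. The intervals of Cd44, Selplg, Icam1, Pecam1 and Cd9 lie above 0, and those of Cxcr4 and Cd34 include 0.

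Over all 7 lists of partner and pathway genes, 105 of 140 genes were tested, 30 were under a mean of 1 FPKM and 5 had no row of their own. Of the 105, 63 rose (60%) and 8 fell (7.62%), with a median log2 fold change of 0.61, against 24.2%, 22.0% and 0.04 for all genes. With the replicate number as a block the counts were 72 and 9, and the shares of all genes 30.3% and 24.9%. The lists were also chosen with earlier results of these data known, so these contrasts with all genes are a description.

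**Figure D3:**
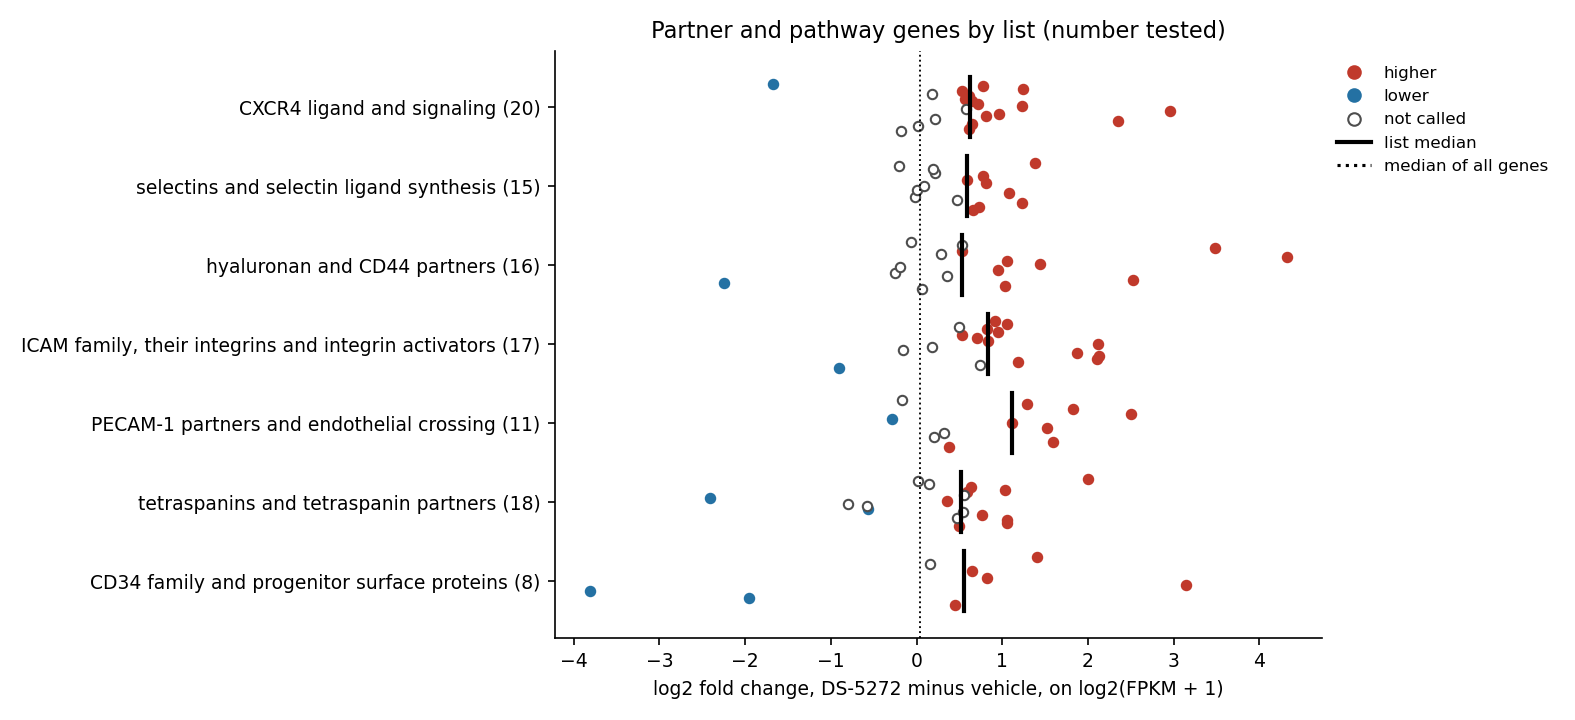
Log2 fold change of every tested partner and pathway gene in its list, with called genes filled, the median of each list as a bar and the median of all genes as a dotted line. All 7 list medians lie right of the dotted line, between 0.52 and 1.11, and the genes called lower number at most 2 in a list.

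The order of the 7 genes by level changed between the groups. In vehicle mice it ran from Cxcr4 through Cd34, Cd44, Cd9, Pecam1 and Selplg to Icam1. Ranges of neighbours in this order were separate only between Cd44 and Cd9 and between Pecam1 and Selplg. With DS-5272 the order by mean was Cd44, Cd9, Cd34, Pecam1, Cxcr4, Selplg and Icam1, with overlapping ranges at every step, and Cd44 lay above Cd9 in 3 of 3 mice. Cxcr4 thus went from rank 1 to rank 5, and Selplg and Icam1 stayed at the bottom. The rank of Selplg is that of its own row, and whether Gm19941 shares its fragments was not tested.

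The summed FPKM of the 7 genes was 421.1, 370.6 and 352.7 in vehicle mice and 519.1, 594.6 and 778.7 in DS-5272 mice. Cxcr4 supplied 31.15%, 27.79% and 22.64% of this sum in vehicle and 9.88%, 10.54% and 12.43% with DS-5272. The share of Cxcr4 was lower in every DS-5272 mouse, but the sum holds the 5 genes that rose, so this share would fall with an unchanged Cxcr4 level and adds no support for a fall of Cxcr4. Cd44 went from a mean share of 20.7 ± 4.89% to 26.9 ± 3.27%, Cd9 from 10.3 ± 3.89% to 16.3 ± 3.58%, and Cd34 from 22.3 ± 2.69% to 15.9 ± 4.38%.

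**Figure D4:**
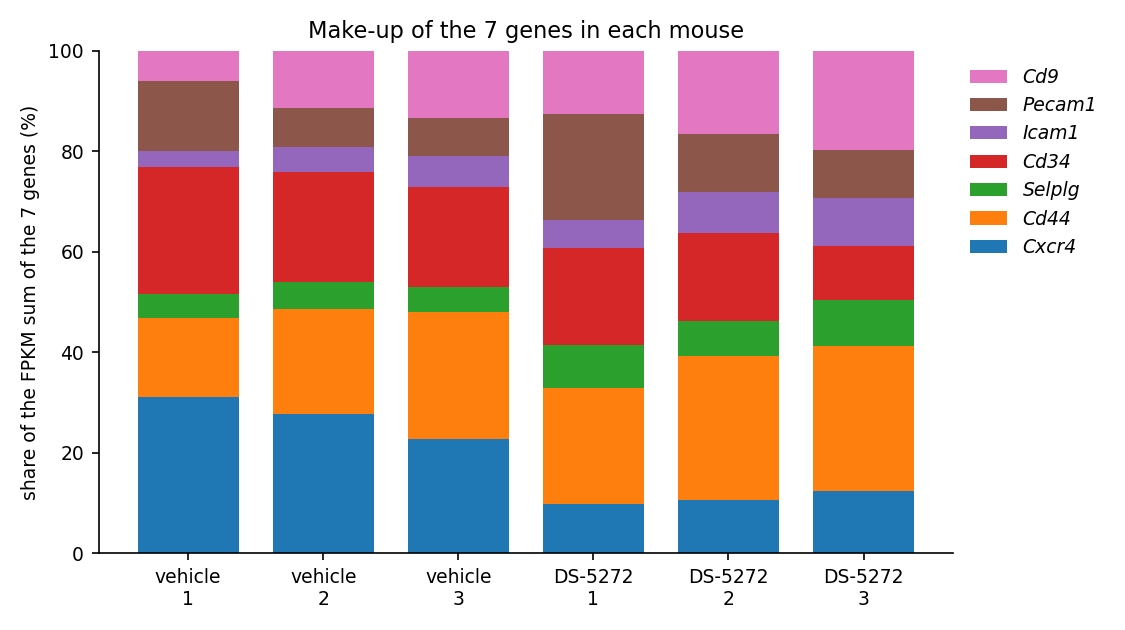
Share of each of the 7 genes in their summed FPKM, in percent, as 1 stacked bar for each of 3 vehicle and 3 DS-5272 mice. The Cxcr4 segment is 22.64% to 31.15% in vehicle mice and 9.88% to 12.43% in DS-5272 mice.

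Ratios between pairs of the 7 genes within a mouse do not depend on a scaling that applies the same factor to a whole library. Quantile normalization is not of that kind and can change them. The groups did not overlap for Cxcr4 over each of the 5 genes that rose, which restates the rise of those genes. Cxcr4 over Selplg, the chemokine receptor over the selectin ligand, was 6.48, 5.28 and 4.61 in vehicle mice and 1.16, 1.499 and 1.38 in DS-5272 mice. The size of this ratio rests on the row of Selplg alone, without Gm19941. Cxcr4 over Cd44 was 1.99, 1.33 and 0.89 in vehicle and 0.428, 0.368 and 0.431 with DS-5272. Cxcr4 over Cd34 overlapped, with 1.138 in DS-5272 replicate 3 inside the vehicle range of 1.136 to 1.271. The steadiest of 21 ratios, singled out after the values were seen, was Icam1 over Cd9, which stayed between 0.442 and 0.544 in all 6 mice, the highest being 1.23 times the lowest.

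Across the 6 mice, which fall into 2 groups, Cd44, Icam1 and Cd9 tracked each other most closely, with Pearson r of 0.997 between Cd44 and Icam1, 0.987 between Cd44 and Cd9 and 0.992 between Icam1 and Cd9. After the group means were taken out these were 0.997, 0.96 and 0.973, while Pecam1 was at -0.709 with Cd44, -0.734 with Icam1 and -0.827 with Cd9. The values within groups rest on 3 mice each, whose libraries differ in depth, and are a description. Patterns like each gene were sought by Pearson r of log2(FPKM + 1) over the 6 mice. Other names that averaged 10 FPKM or more numbered 6766, and those joining several genes were passed over. The closest patterns were Ciao1 (0.9825) and Suv420h2 (0.9611) for Cxcr4, and Lgals1 (0.9955) and Sdhb (0.9161) for Cd34. For the genes that rose they were Arhgdib and Pxn (both 0.9989) for Cd44, Trpm2 (0.9971) for Selplg after Gm19941 (0.9997), Mbp (0.999) for Icam1 after LOC100861791 (0.9996), Pip4k2b (0.9974) and Adam17 (0.9954) for Pecam1, and Ypel5 (0.9991) and Cyb5r4 (0.9983) for Cd9. The FPKM of Gm19941 was 4.45 to 4.68 times that of Selplg in every mouse, and whether the 2 rows share fragments was not tested.

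Several of the 7 proteins also mark other marrow cells, so marker lists of those cells were summed in each mouse. The study marked leukemia cells with GFP and collected them by it for other assays, a gate that would remove unlabelled host cells, and whether the sequenced cells passed it is not given in the sources used here. Endothelium, which carries PECAM-1, CD34 and ICAM-1, was low: 11 of 12 markers had a mean under 1 FPKM, Sox17 was at 0, Cdh5 did not exceed 0.0758 FPKM, and the sum was 4.36 to 4.97 FPKM in vehicle and 3.51 to 4.96 FPKM with DS-5272. Egfl7, the endothelial marker with a mean above 1 FPKM, made up most of that sum in vehicle mice and fell with DS-5272 (log2 fold change -1.21, limma adjusted p = 0.00617). Without Egfl7 the other 11 summed to 0.979, 1.06 and 0.999 FPKM in vehicle and 3.89, 1.91 and 3.28 FPKM with DS-5272, with Vwf and Eng higher in each DS-5272 mouse than in any vehicle mouse. Megakaryocyte and platelet markers, which go with CD9 and PECAM-1, summed to 6.45 to 7.85 FPKM in vehicle and 9.14 to 11.48 FPKM with DS-5272 over 9 of 10 genes, and Itga2b, the platelet integrin chain, was at a limma adjusted p of 0.0591. Itgb3 made up most of the vehicle sum at 3.83 to 4.92 FPKM, while the platelet chemokines Pf4 and Ppbp were untested and went from 0 to 0.167 and 0 to 0.117 FPKM in vehicle to 1.19 to 2.45 and 0.605 to 1.28 FPKM with DS-5272. The stromal sum over 8 genes was 1.81 to 2.86 FPKM and 3.10 to 6.34 FPKM.

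Most neutrophil markers also rose with DS-5272, while most macrophage markers did not pass the test. Over all genes tested, 24.2% were called higher and 22.0% lower. The neutrophil sum over 8 genes was 145.9, 1065 and 1618 FPKM in vehicle and 2958, 8904 and 14290 FPKM with DS-5272. S100a8 and S100a9 made up most of this sum in every mouse. Of the 8 genes 6 rose, and Camp and Ngp were not called (limma, adjusted p = 0.35 and 0.179). Within each group the neutrophil sum was lowest in replicate 1, as were Cd44, Icam1 and Cd9. Pecam1 was highest there, and Selplg was not lowest there in either group. The marrow macrophage sum over 11 of 12 genes was 22.9 to 29.9 FPKM in vehicle, 279.8 FPKM in DS-5272 replicate 1 and 48.9 and 61.1 FPKM in the other DS-5272 mice, and the complement genes C1qa, C1qb and C1qc were the 3 that rose. The erythroid sum over 5 of 7 genes was 2.46 to 4.61 FPKM in vehicle and 145.5, 27.3 and 12.67 FPKM with DS-5272, and 2 rose. B cell sums were 4.52 to 5.37 and 3.52 to 4.58 FPKM, T and NK cell sums 1.51 to 2.42 and 2.59 to 3.83 FPKM, and mast cell, basophil and eosinophil sums 9.65 to 10.83 and 3.13 to 6.28 FPKM, with Fcer1a at 0 and Mcpt8 called lower. The leukemia markers Meis1, Pbx3 and Mef2c summed to 197.6 to 218 and 199.2 to 269.5 FPKM. Meis1 and Pbx3 were not called. Mef2c was called higher, from 0.0984 to 0.295 FPKM in vehicle to 1.54 to 2.45 FPKM with DS-5272 (log2 fold change 1.31, limma adjusted p = 0.00312). The part of these cells in the changes of the 7 genes was not tested, and in bulk RNA a change in the share of a cell type and a change in RNA per cell cannot be told apart.

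**Figure D5:**
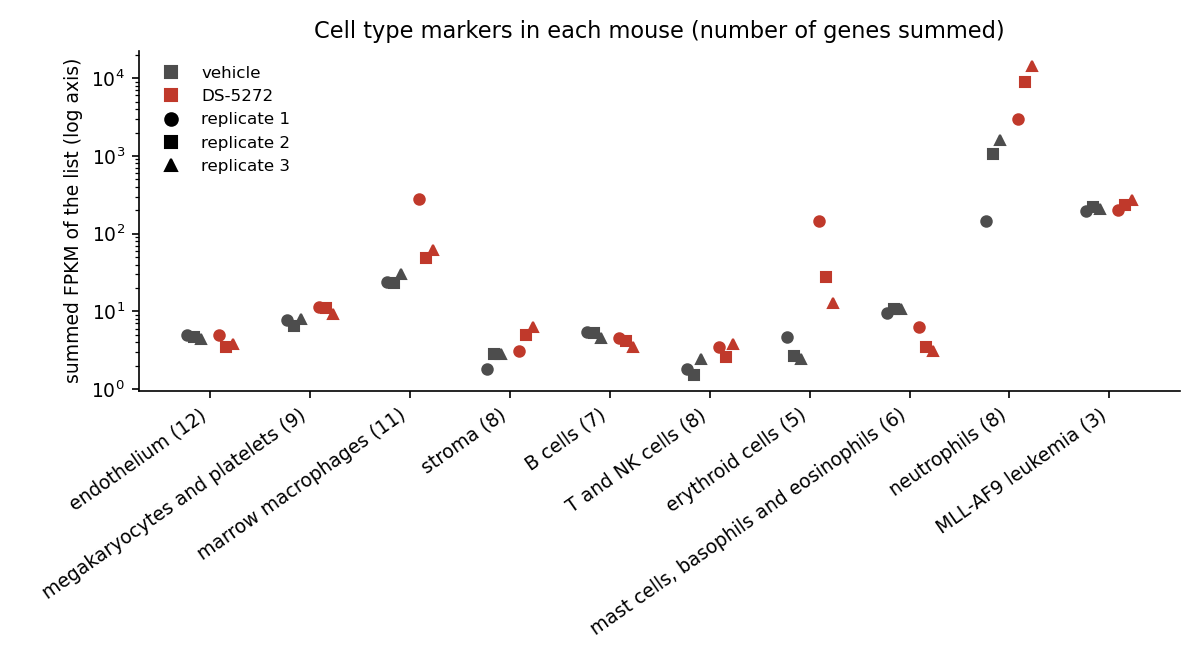
Summed FPKM of each marker list on a log axis, with 1 point for each of 3 vehicle and 3 DS-5272 mice. The neutrophil sums are 145.9 to 1618 FPKM in vehicle and 2958 to 14290 FPKM with DS-5272, while the endothelial sums stay at or under 4.97 FPKM.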

How the data were processed

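RNA from the bone marrow leukemia cells of 6 mice was prepared with a strand-specific SureSelect kit and sequenced. Per the labels, the submitters' processing notes name cutadapt 1.8.1, TopHat2 2.1.1, Cufflinks 2.2.1, FastQC and the GRCm38 mouse genome. The authors deposited FPKM values, 1 table of 26632 rows and 26082 names, of which 433 rows join several genes. Rows sharing a name were summed, and joined rows were left out of named genes. FPKM was analysed as log2(FPKM + 1) in the 11130 genes averaging 1 FPKM or more, because no counts were used here. limma 3.58.1 in R 4.3.3 (lmFit and eBayes with a trend, two-sided) compared DS-5272 with vehicle, 3 mice each, with Benjamini-Hochberg adjustment over all genes, after a test on simulated data. Groups and replicate numbers came from the sample labels.

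The members, the gene lists and the naming rule were chosen with earlier results of these data known. The rule named the 7 genes, up to 3 genes with the largest called rise and 3 with the largest called fall in each pathway list, and for each of the 7 the 2 genes with the highest r. Positions are from GENCODE M21 on GRCm38, and 9 of 40 genes checked, including Cd34, Icam1 and Cd9, have an exon overlapping another gene. Same-numbered mice deviated together from their group means (r = 0.658, 0.209 and 0.43, all above 0.1), while different-numbered mice ranged from -0.576 to 0.335, with vehicle 2 closer to DS-5272 replicate 3 (0.335) than to its own number, so the match is specific to the number for replicates 1 and 3 at most. The numbers were still treated as pairs in an alternative with replicate number as a block. The remaining alternatives were 4 rescalings, a filter at 5 FPKM or none, 0.1 as pseudocount, the highest row per name, no eBayes trend, a log2 limit of 1 and leaving out each mouse. Python 3.11.15 with pandas 2.3.3 and matplotlib 3.10.9 read annotation and drew plots.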

Additional observations from a re-analysis of the deposited data

How the results depend on the processing

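Each log2 fold change was recomputed under 17 alternatives. Cd44 (0.83 to 1.33) and Selplg (1.13 to 1.51) kept direction and call in all 17. For Cxcr4 the call became lower with a common total (-0.86), a common upper quartile (-0.73), quantile normalization (-0.85) and without DS-5272 replicate 3, and leaving out 1 mouse gave -0.84 to -0.39. Cd34 turned to -0.085 with a common total and -0.072 with quantile normalization, uncalled in both, and leaving out 1 mouse gave 0.05 to 0.34. Pecam1 lost its call with no filter (1.19), a common total (0.94), a common upper quartile (1.05) and quantile normalization (1.01), and without vehicle replicate 2, vehicle replicate 3 or DS-5272 replicate 1, with 0.98 to 1.55 over all 6 omissions. Icam1 lost its call without vehicle replicate 1 or 2 (1.05 to 1.71 over omissions), and Cd9 without vehicle replicate 1 (1.10 to 1.71). The cause was not tested. The members called higher numbered 5 and fell to 3 without vehicle replicate 1 or vehicle replicate 2, and the range over omissions was 3 to 5. The members called lower numbered 0 and became 1 with a common total, a common upper quartile, quantile normalization or without DS-5272 replicate 3 (0 to 1 over omissions). Pathway genes called higher and lower went from 63 and 8 to 31 and 5 with a log2 limit of 1 added, by construction of that limit, and leaving out 1 mouse gave 44 to 62 and 6 to 9.

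Over all genes the counts called higher and lower were 2697 and 2451, 978 and 621 with the log2 limit, and 1654 to 2920 and 1404 to 2446 with 1 mouse left out. The share of calls that were higher was 52.4% as deposited, 32.7% with a common total, 41.3% with a common upper quartile and 43.4% with quantile normalization, and the median log2 fold change of all genes was 0.04, -0.21, -0.08 and -0.04. With the replicate block, limma's adjusted p was 0.131 for Cxcr4, 0.00169 for Cd44, 0.0035 for Selplg, 0.231 for Cd34, 0.0018 for Icam1, 0.0019 for Pecam1 and 0.00095 for Cd9, with the log2 fold changes unchanged by construction, so the pairing changed no member's call. Of the other named genes only Ptpn11 lost its call under the block. Read numbers are unknown, so depth limits low genes such as Itgax and Ptgfrn by an amount that cannot be given.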
